A study of Drosophila mauritiana and Drosophila melanogaster and Drosophila simulans with 12 samples.

Results

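Gene expression was compared between eye-antennal imaginal discs of *D. mauritiana*, strain TAM16, and of its sister species *D. simulans*, strain YVF, to describe which genes and functions differ between the 2 species in the tissue that forms the adult eyes, antennae and head. The discs were taken from female larvae late in the last larval instar, 120 h after egg laying, and all animals were raised at 25 °C at controlled density. Each species is represented by 3 libraries, named D, E and F in *D. mauritiana* and A, B and C in *D. simulans*, each from a pool of 40 to 50 discs, so the replicates measure the spread between pools of 1 strain. With 1 strain per species, species and strain cannot be told apart, and YVF carries visible mutant alleles of *yellow*, *vermilion* and *forked*, while no mutation is named for TAM16. The table of the comparison holds 13320 genes whose models had been shortened to the part that is shared by both genomes, and the 13294 genes whose models differ in length by at most 49 bp between the species were kept. Of these, 10579 had models of equal length, 163 had 0 counts in all 6 libraries, and 11095 had enough counts to be tested.

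Eye-antennal discs are paired epithelial sacs. In late larvae a wave of differentiation, the morphogenetic furrow, crosses the eye part from back to front and leaves clusters of photoreceptors behind it, while the antennal part is patterned in concentric rings and the edges form the head capsule with the ocelli. The network of retinal determination factors (for example *ey*, *toy*, *eya*, *so* and *dac*) commits cells to eye fate, and the steroid hormone ecdysone, made in the ring gland next to the brain, sets the pace of development. Flies of *D. mauritiana* have larger eyes and a narrower face than those of *D. simulans*. Glia, muscle, trachea and blood cells can stay attached to dissected discs.

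The libraries held between 121468882 and 162437570 counts on these gene models, with no separation between the species. Values below are counts scaled to a common library size (counts per 1e+06, CPM) and log2-fold changes of *D. mauritiana* over *D. simulans* with their standard error (SE). Correlations of log2 values between libraries were 0.987 to 0.995 within *D. mauritiana*, 0.99 to 0.996 within *D. simulans* and 0.961 to 0.973 between the species, and the first principal component, with 72.5% of the variance, separated the species. All 20 markers of the eye-antennal disc were measured, and their summed level was 2120, 2150 and 2470 CPM in *D. mauritiana* and 2150, 2190 and 2320 CPM in *D. simulans*.

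Library E of *D. mauritiana* and library A of *D. simulans* stood apart from the other libraries of their species. In library E, 68 genes were at least 10-fold above both D and F. Of these, 3 were heat shock genes (*Hsp70Ab*, *Hsp68* and *Hsp22*), and 57 others, among them mucins, peritrophins and other chitin-binding proteins, were also at least 10-fold above D and F in every *D. simulans* library. The 57 genes summed to 49.3, 5010 and 87.0 CPM in *D. mauritiana* D, E and F, and to 11000, 12100 and 9700 CPM in *D. simulans* A, B and C. They summed to 13.3, 30.1 and 5.12 CPM in the single-end libraries A, B and C of *D. mauritiana*, which were normalised separately and not used to pick them. Thus 5 of 6 pools of *D. mauritiana* were low and E lay between them and *D. simulans*. The 3 heat shock genes went differently, with 129, 4750 and 215 CPM in D, E and F and 5510, 2760 and 3260 CPM in the single-end libraries. They summed to 21.0, 1060 and 704 CPM in *D. simulans*, so D and F were the low pools of *D. mauritiana* for them. The mucin gene *Muc96D* had 5.94, 798 and 6.46 CPM in *D. mauritiana*, against 1840, 2614 and 2048 CPM in *D. simulans*. *Peritrophin-15a*, named for proteins of the matrix that lines the insect midgut, had 0.997, 331 and 1.62 CPM in *D. mauritiana*, against 918, 925 and 814 CPM in *D. simulans*. Only 3 of the 57 genes (*Peritrophin-15b*, *CG5506* and *CG3819*) were called different with all 6 libraries and all 57 without library E, which follows in part from how they were picked. In *D. simulans*, library A was high in genes of salivary gland and fat body, with *Sgs4*, a glue protein, at 1.5, 7.75 and 4.89 CPM in *D. mauritiana* and 46.5, 2.17 and 0.909 CPM in *D. simulans*, and the 7 salivary gland markers summed to 21.9, 44.0 and 34.5 CPM in *D. mauritiana*, against 201, 29.2 and 17.3 CPM in *D. simulans*. The part of attached tissue in the results below was not tested.

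**Figure D1:**
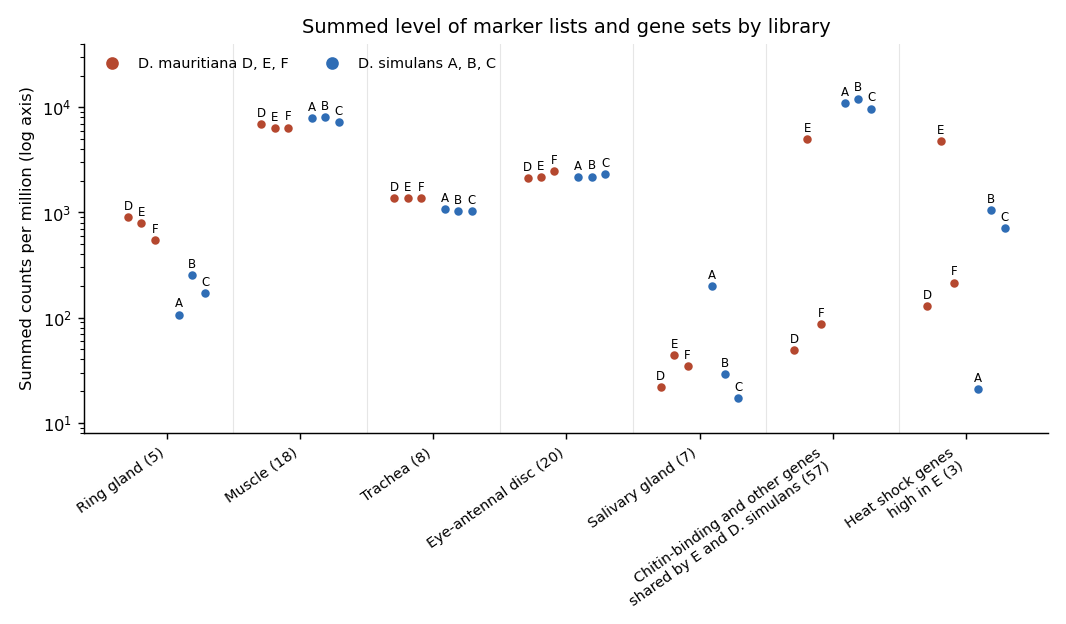
Summed CPM (log axis) of marker lists and gene sets, with the number of genes in brackets, in *D. mauritiana* libraries D, E and F (red, left) and *D. simulans* libraries A, B and C (blue, right). The ring gland markers of *D. mauritiana* lie above those of every *D. simulans* library. Library E lies apart from D and F in the 57 genes that it shares with *D. simulans* and in 3 heat shock genes. The 3 heat shock genes were also high in the single-end libraries of *D. mauritiana* (not drawn).

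Across the tested genes, 2782 were called different with an adjusted p-value below 0.05 (edgeR's quasi-likelihood test), 1435 higher and 1347 lower in *D. mauritiana*. Over all genes tested in the table, the share called was 25.1%, with 13.0% higher and 12.1% lower in *D. mauritiana*, and 11.6% were called with at least a 2-fold difference, 6.18% higher and 5.46% lower in *D. mauritiana*. Most calls were small differences, 1491 below 2-fold, and the median fold of called genes was 1.86. At least 2-fold differences were called for 1291 genes, 684 higher and 607 lower in *D. mauritiana*, and at least 8-fold differences for 342 genes, 165 higher and 177 lower. The libraries of the 2 species did not overlap for 44.6% of all genes tested.

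Genes called with large differences were mostly of low level. Levels between genes were compared per length, as counts per kilobase of gene model and 1e+06 counts (RPKM). When the tested genes were split into 4 equal groups by mean RPKM, in the lowest group, at most 2.02 RPKM, a share of 25.2% was called with at least a 2-fold difference. In the highest group, at least 50.1 RPKM, this share was 2.52%, although 19.2% of these genes were called. Of the calls, 700 of 760 in the lowest group and 70 of 533 in the highest were at least 2-fold. The part of counting error, and of small differences missed at low counts, was not tested. Genes known only by a CG or CR number were called with at least a 2-fold difference in 15.8% of cases, and genes with another symbol in 9.02%, with level not taken into account. The chromosome arms of *D. mauritiana* differed little in the share of called genes, between 24.2% on 3L and 26.8% on 2L with 24.9% on X, and the small chromosome 4 had 12 called genes of 76. The number of called genes depended on single libraries: it was 1627 without *D. mauritiana* D and 1730 without *D. simulans* C.

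The single-end libraries A, B and C of *D. mauritiana* are other pools of the same strain, sequenced with another read type and normalised in another table, so they were set beside the called genes without a test. Of 178 called genes chosen by the rule for named genes that were also in that table, 119 had all 3 single-end libraries beyond every *D. simulans* library in the called direction, and 31 had none. Among the 109 genes called with at least a 2-fold difference, 95 had all 3 beyond *D. simulans* and 5 had none (*Cyp4e3*, *Obp99c*, *Ugt301D1*, *yellow-b* and *yellow-d*). Among the 69 genes called below 2-fold, 24 had all 3 beyond and 26 had none, and 10 of the 69 had all 3 beyond *D. simulans* in the opposite direction. Small differences were often not seen in the single-end pools. Read type and normalisation differ between the 2 sets, so this comparison cannot tell whether such differences hold.

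**Figure D2:**
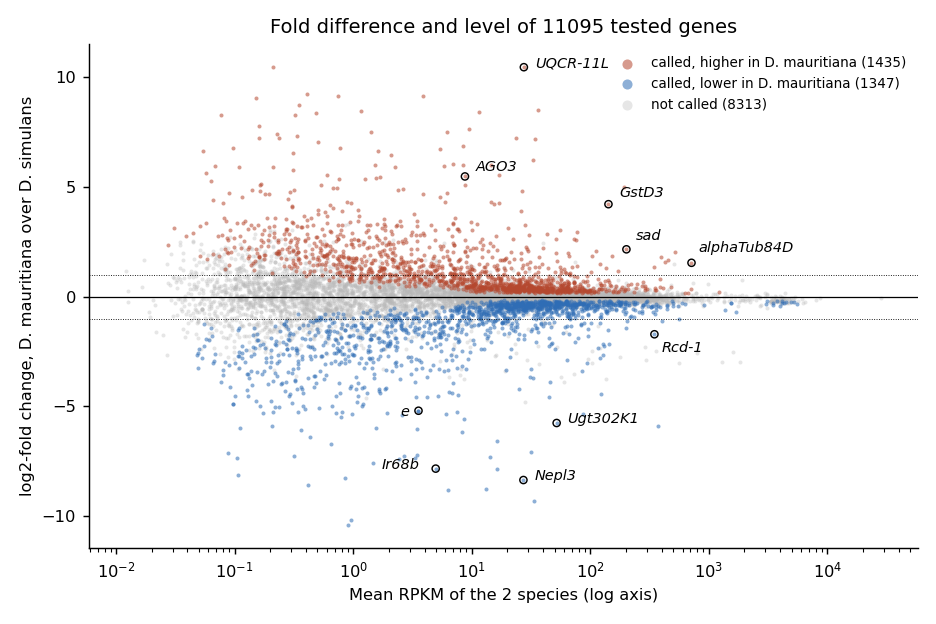
Log2-fold change of *D. mauritiana* over *D. simulans* against the mean RPKM of both species (log axis) for the 11095 tested genes, with dotted lines at a 2-fold difference. Red points are the 1435 genes called higher in *D. mauritiana*, blue points the 1347 genes called lower, and the widest fold differences lie at low levels.

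Few of the genes that pattern the eye and the antenna were called. Among the lists of disc markers and of eye, head, antennal, neurogenic and photoreceptor genes, the highest share called was 15.8%. The share over all genes tested was 25.1%. Among the 20 disc markers, 1 was called higher in *D. mauritiana* (*oc*) and none lower, and their log2-fold changes ranged from -0.30 to 0.33 with a median of 0.04. Without *D. mauritiana* F, 1 disc marker was higher and 2 were lower. Of 18 tested retinal determination genes, 2 rose in *D. mauritiana* and none fell. The early eye factor *ey* had 159, 156 and 179 CPM in *D. mauritiana*, against 166, 187 and 186 CPM in *D. simulans*, and *eya* had 398, 394 and 483 CPM in *D. mauritiana*, against 411, 405 and 434 CPM in *D. simulans*. Both species overlapped for these genes, and neither was called (edgeR, adjusted p = 0.294 for *ey* and 0.847 for *eya*). The proneural gene *ato*, which founds the first photoreceptor of each cluster, had 79.2, 73.1 and 109 CPM in *D. mauritiana* and 112, 97.2 and 111 CPM in *D. simulans*, with a log2-fold change of -0.30 (SE 0.15) that was not called (edgeR, adjusted p = 0.197). The 2 retinal determination genes that rose were the homeobox gene *hbn*, with a log2-fold change of 0.97 (SE 0.27), and *nmo*, which encodes a kinase of ommatidial rotation, with 0.37 (SE 0.08), and the call of *hbn* held only without *D. simulans* C among the fits that left out 1 library. Single-end pools of *D. mauritiana* held 28.3, 34.5 and 55.8 CPM of *nmo*, all below the 63.8, 58.7 and 69.5 CPM of *D. simulans* and thus opposite to the paired-end difference.

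Of 19 tested genes that pattern the head, the dorsal eye and the ocelli, 3 rose and none fell. *tll*, which encodes an orphan nuclear receptor of the embryonic head and optic lobe, had 6.73, 11.8 and 9.61 CPM in *D. mauritiana*, against 0.722, 0.841 and 2.42 CPM in *D. simulans*. The libraries of *D. mauritiana* all lay above those of *D. simulans*, with a log2-fold change of 2.82 (SE 0.51, edgeR, adjusted p = 0.00772), and the single-end libraries of *D. mauritiana* held 28.1, 38.7 and 29.9 CPM. The other 2 were small: *Dr*, a homeobox gene, had a log2-fold change of 0.42 (SE 0.11), and *oc*, the orthodenticle homeobox gene needed for the ocelli and the vertex, had 41.5, 43.1 and 38.6 CPM in *D. mauritiana* and 29.4, 33.3 and 35.5 CPM in *D. simulans*, a log2-fold change of 0.33 (SE 0.09, edgeR, adjusted p = 0.0347). The call of *oc* was lost without *D. mauritiana* D or E or *D. simulans* A or B, that of *Dr* without any 1 of the libraries, and with the directly re-annotated gene models, which were not shortened to a shared part, *oc* had a log2-fold change of -0.44. In the single-end table, *D. mauritiana* held 17.8, 19 and 33 CPM of *oc* and 4.48, 5.49 and 6.14 CPM of *Dr*, none above *D. simulans*. Without *D. mauritiana* D or E or *D. simulans* A or B, 1 gene of the list was called higher.

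Antennal patterning genes counted 1 of 20 higher (*bab2*, 0.35, SE 0.06) and 1 lower (*Sp1*, -0.41, SE 0.07). The single-end libraries of *D. mauritiana* held 21.5, 34.3 and 60.1 CPM of *bab2*, all below the 72.9, 69.4 and 73.9 CPM of *D. simulans* and against 93.7, 94.5 and 88.1 CPM in the paired-end libraries of *D. mauritiana*. Proneural and neurogenic factors counted 2 of 27 higher, *BobA* and *Tom*, members of the Bearded family that dampens Notch signalling. The call of *Tom*, with a log2-fold change of 0.42, was lost in 5 of 6 fits without 1 library, all but that without *D. mauritiana* E. Of 34 genes of photoreceptor and cone cell fate, 1 was higher and 3 were lower in *D. mauritiana*, with 1 lower without *D. mauritiana* D or *D. simulans* B or C. *prom*, related to prominins of photoreceptor membranes, had 1.5, 1.68 and 1.37 CPM in *D. mauritiana* and 0.0984, 0.148 and 0.124 CPM in *D. simulans*, a log2-fold change of 3.61 (SE 0.30). *ninaA*, a chaperone of rhodopsin, had 0.74, 0.428 and 0.748 CPM in *D. mauritiana* and 3.13, 2.65 and 2.32 CPM in *D. simulans*, a log2-fold change of -2.08 (SE 0.29, edgeR, adjusted p = 0.00287). Both were at low levels with no overlap of the species, and the single-end libraries of *D. mauritiana* held 2.67, 2.76 and 1.1 CPM of *ninaA*, which lies partly in the range of *D. simulans*.

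Signalling pathways of the disc held few called genes, most of them higher in *D. mauritiana*. In each pathway the share called in either direction was below the 25.1% of all genes tested. Higher and lower calls were 3 and 0 of 19 Notch pathway genes, 3 and 0 of 24 genes of the EGF receptor pathway, 2 and 0 of 28 of the Dpp pathway, 2 and 1 of 15 of the Hedgehog pathway, 3 and 0 of 26 of the Wingless and Wnt pathway, and 1 and 0 of 12 of the JAK/STAT pathway. The share called higher in the lists with no lower call lay between 7.14% and 15.8%, beside 13.0% of all genes tested, while 12.1% of all genes tested were called lower. Without *D. mauritiana* D, 1 Notch pathway gene was called higher, and without *D. simulans* C, 1 gene of the Wingless and Wnt pathway. Medians of these lists lay between 0 and 0.11, beside 0 over all tested genes. The ligand gene *Wnt4* had 19, 22.1 and 18.9 CPM in *D. mauritiana* and 10.1, 7.47 and 10.3 CPM in *D. simulans*, a log2-fold change of 1.11 (SE 0.15, edgeR, adjusted p = 0.00265). In the EGF receptor pathway, *grk*, a ligand known from the oocyte, rose by a log2-fold change of 1.36 (SE 0.16), and *stet*, a rhomboid protease that processes such ligands in the germline, by 1.36 (SE 0.17). Among the receptors and cofactors, *dlp*, a glypican of the Hedgehog and Dpp pathways, had a log2-fold change of 0.44 (SE 0.06), *boi*, a Hedgehog co-receptor, had 0.36 (SE 0.07), and *shf*, which spreads Hedgehog, had -0.39 (SE 0.06). Single-end pools of *D. mauritiana* held 78.5, 90.3 and 144 CPM of *dlp* and 74.6, 98.7 and 150 CPM of *boi*, and only library C was above *D. simulans* for both. The Hippo and Fat list, which controls growth, had 4 higher and 1 lower of 21, all within a log2-fold change of 0.4, with 1 higher and none lower without *D. mauritiana* D. The cell cycle list had 2 higher and 2 lower of 45, but 1 higher and 10 lower without *D. mauritiana* F. *Ilp8*, an insulin-like signal of disturbed disc growth that delays pupariation, had 0.0965, 0.0414 and 0.0761 CPM in *D. mauritiana* and 0.418, 0.74 and 0.513 CPM in *D. simulans*, under the level set for naming genes and chosen after its values were seen.

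**Figure D3:**
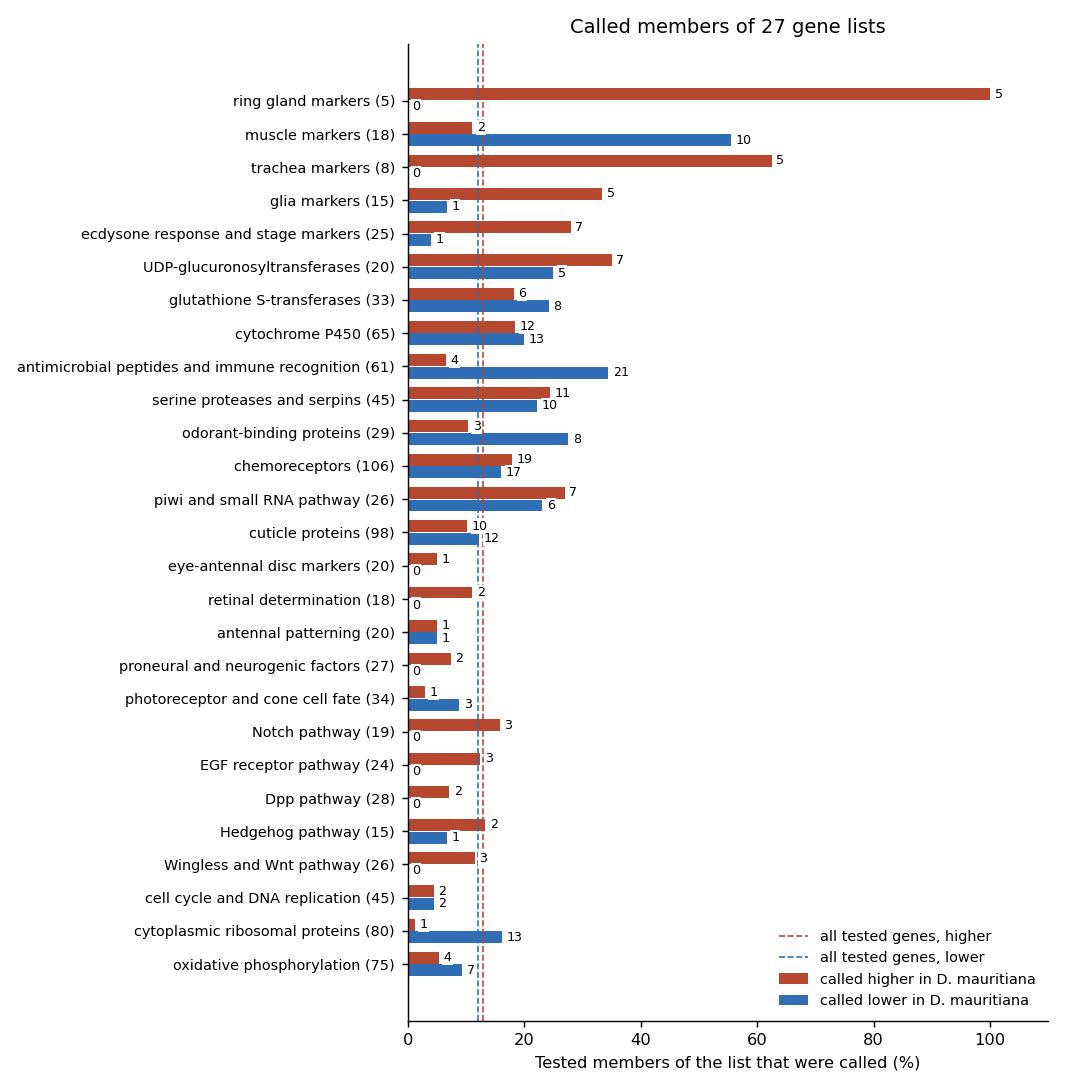
Share of tested members called higher (red, upper bar) or lower (blue, lower bar) in *D. mauritiana* for 27 gene lists, with the number tested in brackets and the number called beside each bar. Dashed lines give 13.0% higher and 12.1% lower over all genes tested, and most developmental lists lie below them, while ring gland, trachea, muscle and immune genes lie above in 1 direction.

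Genes of hormone synthesis in the ring gland were the list with the highest share of calls: 5 of 5 tested genes rose in *D. mauritiana*, with a median log2-fold change of 2.16. The ring gland genes *phm*, *spok* and *nvd* were not matched to an identifier and are not in this list. *sad*, a cytochrome P450 late in ecdysone synthesis, had 620, 544 and 385 CPM in *D. mauritiana*, against 57.8, 177 and 113 CPM in *D. simulans*, a log2-fold change of 2.16 (SE 0.39, edgeR, adjusted p = 0.00809). *dib*, the P450 before it in the pathway, had 90.1, 92.4 and 49.4 CPM in *D. mauritiana* and 5.13, 16.9 and 11.1 CPM in *D. simulans*, a log2-fold change of 2.80 (SE 0.45, edgeR, adjusted p = 0.00496). For both genes the lowest *D. mauritiana* library, F, lay above the highest *D. simulans* library, B. *sro*, which acts early in the same pathway, had 97.5, 88.1 and 64.8 CPM in *D. mauritiana* and 35.4, 44.7 and 36.3 CPM in *D. simulans*, a log2-fold change of 1.11 (SE 0.16).

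The other glands of the ring gland showed the same direction. *jhamt*, which makes juvenile hormone in the corpora allata, had 57.4, 48.2 and 31.4 CPM in *D. mauritiana* and 3.62, 5.77 and 4.66 CPM in *D. simulans*, a log2-fold change of 3.29 (SE 0.27, edgeR, adjusted p = 0.000311). *Akh*, the adipokinetic hormone of the corpora cardiaca, had 31.4, 25.7 and 17.1 CPM in *D. mauritiana* and 5.14, 8.54 and 7.08 CPM in *D. simulans*, a log2-fold change of 1.84 (SE 0.27). In each of these 5 genes the lowest library was F in *D. mauritiana* and A in *D. simulans*. All 5 stayed called in each fit that left out 1 library, and the single-end libraries of *D. mauritiana* held 592, 234 and 562 CPM of *sad*, 138, 63.3 and 32.3 CPM of *jhamt*, 20.4, 44.4 and 41.7 CPM of *Akh* and 47.1, 16.3 and 59.5 CPM of *dib*, so that B of the single-end libraries lay inside the range of *D. simulans* for *dib*. Genes of all 3 glands of the ring gland were higher in the same libraries, the part of attached ring gland in this was not tested, and in pooled tissue more cells of a type and more RNA per cell cannot be told apart. *Start1* and *Npc1a*, sterol transport genes of the prothoracic gland that were looked up after these values were seen, had log2-fold changes of 0.67 (SE 0.12) and 0.58 (SE 0.14), and the call of *Npc1a* was lost without *D. mauritiana* D or E or *D. simulans* A or C.

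Ecdysone response genes counted 7 higher and 1 lower of 25 tested, with a median of 0.36. The share called was 32.0%, beside 25.1% of all genes tested. The early-late nuclear receptor *Hr3* had 27.6, 19.6 and 30.6 CPM in *D. mauritiana* and 6.36, 2.62 and 9.45 CPM in *D. simulans*, a log2-fold change of 2.08 (SE 0.44, edgeR, adjusted p = 0.0140). *Hr4* had 86.0, 77.4 and 90.0 CPM in *D. mauritiana* and 37.4, 15.9 and 46.8 CPM in *D. simulans*, a log2-fold change of 1.34 (SE 0.35, edgeR, adjusted p = 0.0307), and its call was lost without any 1 of the *D. mauritiana* libraries or *D. simulans* A. In the single-end table, *D. mauritiana* held 37.3, 40 and 106 CPM of *Hr4*, with only C above *D. simulans*. *Eip78C*, another early nuclear receptor, had 37.2, 39.0 and 38.0 CPM in *D. mauritiana* and 20.6, 13.8 and 22.8 CPM in *D. simulans*, a log2-fold change of 1.00 (SE 0.17). Library B of *D. simulans* was the lowest for these 3 receptors. Without it 10 of the list were called higher and 1 lower, and without *D. mauritiana* D, 4 were called higher and 1 lower.

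The opposite direction was seen in *ftz-f1*, a nuclear receptor of the prepupa that is repressed while ecdysone is high. It had 24.8, 25.2 and 30.5 CPM in *D. mauritiana*, against 77.0, 83.6 and 76.0 CPM in *D. simulans*, a log2-fold change of -1.55 (SE 0.10, edgeR, adjusted p = 9.8e-05). Its 3 libraries per species were tight, and B of *D. simulans* was the highest. The single-end libraries of *D. mauritiana* held 65.0, 50.2 and 35.3 CPM, between the 2 sets of paired-end libraries. *Blimp-1*, an early ecdysone target, had 72.4, 64.1 and 76.8 CPM in *D. mauritiana* and 37.6, 11.8 and 48.2 CPM in *D. simulans* but was not called (edgeR, adjusted p = 0.109). The receptor subunits themselves did not stand apart, with *EcR* at a log2-fold change of 0.05 (SE 0.15) and *usp* at -0.01 (SE 0.07).

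**Figure D4:**
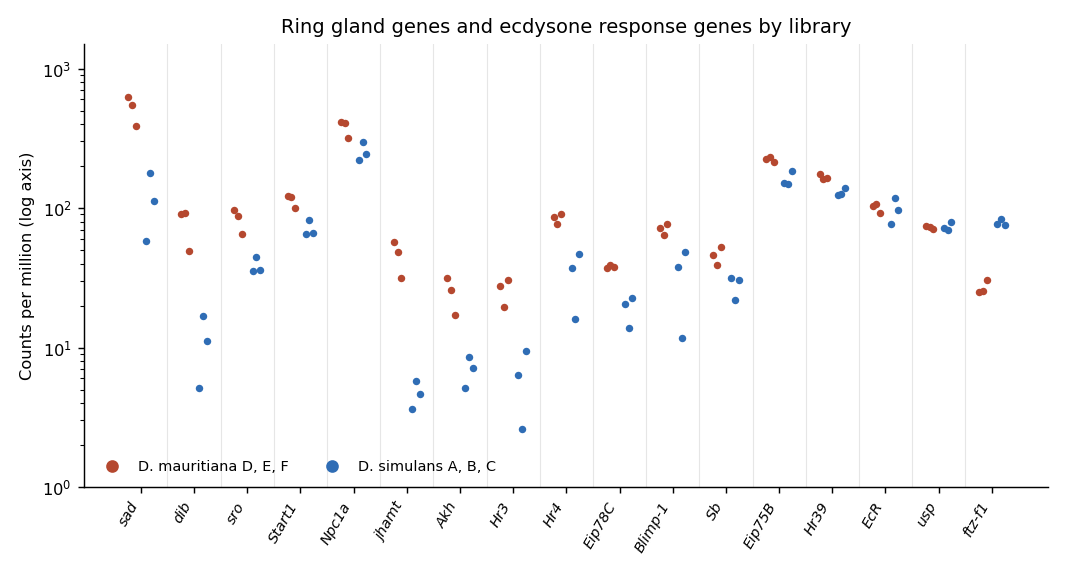
CPM (log axis) of ring gland genes, sterol transport genes and ecdysone response genes in *D. mauritiana* D, E and F (red, left) and *D. simulans* A, B and C (blue, right). *sad*, *dib*, *jhamt*, *Akh*, *Hr3* and *Eip78C* do not overlap between the species and are higher in *D. mauritiana*, and *ftz-f1* is lower.

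Of 18 tested muscle markers, 10 were lower and 2 were higher in *D. mauritiana*, with a median of -0.51. This is a share of 66.7% called, beside 25.1% of all genes tested. *Mhc*, the myosin heavy chain of muscle, had 222, 129 and 152 CPM in *D. mauritiana* and 426, 707 and 453 CPM in *D. simulans*, a log2-fold change of -1.66 (SE 0.26, edgeR, adjusted p = 0.00463). *Mlc1*, a myosin light chain, had 56.1, 36.4 and 56.8 CPM in *D. mauritiana* and 145, 138 and 125 CPM in *D. simulans*, a log2-fold change of -1.45 (SE 0.17). The 2 genes that rose were actins, *Act88F* with a log2-fold change of 0.82 (SE 0.07) and *Act79B* with 0.34 (SE 0.06), and for each of them only 1 of the 3 single-end libraries of *D. mauritiana* was above *D. simulans*. The summed level of the list was 6960, 6350 and 6420 CPM in *D. mauritiana* and 7870, 8090 and 7190 CPM in *D. simulans*. Without *D. mauritiana* E and *D. simulans* A, 8 were lower and 2 higher.

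Tracheal markers counted 5 of 8 higher and none lower, with a median of 0.45. The share called was 62.5%, beside 25.1% of all genes tested. *vvl*, a POU factor of tracheal cells, had 46.2, 42.0 and 32.4 CPM in *D. mauritiana* and 16.6, 24.6 and 20.5 CPM in *D. simulans*, a log2-fold change of 0.97 (SE 0.18), and the chitin deacetylases *serp* and *verm* had 0.46 and 0.38 (SE 0.06 each). Single-end pools of *D. mauritiana* held 14.1, 10.7 and 18.9 CPM of *vvl*, in or below the range of *D. simulans*, while for *serp* and *verm* all 3 lay above it. The species did not overlap for any of these 3 genes, with summed levels of the list at 1360, 1380 and 1380 CPM in *D. mauritiana* and 1070, 1030 and 1030 CPM in *D. simulans*. Hemocyte markers counted 0 higher and 1 lower of 13. Fat body markers counted 1 higher and 0 lower of 9 (3 higher without *D. simulans* A), and the gene called was *Adh*, alcohol dehydrogenase, with 106, 121 and 75.0 CPM in *D. mauritiana* and 17, 19.2 and 14.0 CPM in *D. simulans*, a log2-fold change of 2.59 (SE 0.20, edgeR, adjusted p = 0.000242). The fat body list summed to 173, 215 and 127 CPM in *D. mauritiana* and 191, 76.7 and 64.9 CPM in *D. simulans*.

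Glial markers counted 5 higher and 1 lower of 15, with a median of 0.15, but 3 higher without *D. mauritiana* D or E or *D. simulans* A or B, and 2 higher without both *D. mauritiana* E and *D. simulans* A. With all libraries the share called was 40.0%, beside 25.1% of all genes tested. *alrm*, an astrocyte gene, had 5.49, 9.91 and 6.29 CPM in *D. mauritiana* and 0.279, 0.256 and 0.179 CPM in *D. simulans*, a log2-fold change of 4.93 (SE 0.33, edgeR, adjusted p = 0.000143). *gcm*, the factor that sets glial fate, had 3.49, 7.85 and 5.54 CPM in *D. mauritiana* and 0.525, 0.215 and 1.37 CPM in *D. simulans*, a log2-fold change of 2.99 (SE 0.67), and its call was lost without *D. simulans* A. For both genes all libraries of *D. mauritiana* were above all of *D. simulans*, and the single-end libraries held 40.1 to 65.6 CPM of *alrm*. The pan-glial factor *repo* had 19.6, 20.3 and 18 CPM in *D. mauritiana* and 15.8, 18.3 and 19.9 CPM in *D. simulans* and was not called (edgeR, adjusted p = 0.546). Markers of mature neurons counted 1 higher and 3 lower of 12 (1 lower without *D. mauritiana* D or *D. simulans* B). Their median was 0.32, and 33.3% were called, beside 25.1% of all genes tested. Among those called were *Nckx30C*, an ion exchanger, with a log2-fold change of 2.35 (SE 0.20), and *nAChRalpha1*, an acetylcholine receptor subunit, with -3.02 (SE 0.56).

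Detoxification families held many called genes in both directions. With all libraries, the share called in each family below was above the 25.1% of all genes tested. UDP-glucuronosyltransferases, which attach sugars to small molecules, counted 7 higher and 5 lower of 20 tested, but 3 higher and 3 lower without *D. mauritiana* D, 3 higher without *D. simulans* C, and 4 higher without *D. mauritiana* E or *D. simulans* B. *Ugt302K1* had 2.81, 3.08 and 2.90 CPM in *D. mauritiana*, against 167, 152 and 160 CPM in *D. simulans*, a log2-fold change of -5.77 (SE 0.08, edgeR, adjusted p = 2.2e-07). In the single-end table, *D. mauritiana* held 4.82, 3.35 and 4.29 CPM, also far below *D. simulans*. This gene ends a run of 5 neighbouring tested genes on arm 3R of *D. mauritiana*, between positions 13906180 and 13926588 of the published *D. mauritiana* genome, that all fell at least 2-fold, with log2-fold changes from -8.78 to -1.40. The others in the run were *Ugt35A1*, *Ugt302C1*, *Ugt302E1* and *CG4757*, and *CG4757* had 0.29, 0.0 and 0.0317 CPM in *D. mauritiana* and 32.3, 49.3 and 50.1 CPM in *D. simulans*.

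Glutathione S-transferases, which couple glutathione to toxic compounds, counted 6 higher and 8 lower of 33, a share of 42.4% called. *GstD3* had 169, 154 and 164 CPM in *D. mauritiana*, against 9.09, 8.84 and 8.26 CPM in *D. simulans*, a log2-fold change of 4.21 (SE 0.07, edgeR, adjusted p = 6.16e-07). *GstE1* had 31.9, 30.3 and 27.8 CPM in *D. mauritiana* and 174, 136 and 126 CPM in *D. simulans*, a log2-fold change of -2.27 (SE 0.13, edgeR, adjusted p = 7.29e-05). Neither gene showed overlap, and neither call was lost under any alternative in which the gene was tested. *GstD3* belongs to a cluster of similar genes, so reads may be shared with its copies, of which *GstD1* had 734, 667 and 630 CPM in *D. mauritiana* and 1250, 962 and 896 CPM in *D. simulans*. Cytochrome P450 genes counted 12 higher and 13 lower of 65, a share of 38.5% called, and 2 of those higher were *sad* and *dib*. *Cyp4e3* had a log2-fold change of 3.54 (SE 0.42), but its single-end libraries of *D. mauritiana* held 0.227, 0.558 and 0.118 CPM, close to the 0.254, 0.558 and 0.544 CPM of *D. simulans* and below the 5.44, 7.03 and 3.37 CPM of the paired-end libraries of *D. mauritiana*.

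Immune genes were mostly lower in *D. mauritiana* where they were called: 21 of 61 tested genes for antimicrobial peptides and immune recognition fell and 4 rose, with a median of -0.36. Most were at low levels. The share called in this list was 41.0%, beside 25.1% of all genes tested. *Def*, the antimicrobial peptide defensin, had 0.33, 0.221 and 0.152 CPM in *D. mauritiana* and 1.85, 1.58 and 2.14 CPM in *D. simulans*, a log2-fold change of -2.99 (SE 0.35, edgeR, adjusted p = 0.00136). *Drsl4*, of the drosomycin family, had 0.0322, 0.0829 and 0.101 CPM in *D. mauritiana* and 2.14, 4.16 and 4.54 CPM in *D. simulans*, a log2-fold change of -5.61 (SE 0.51).

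At a higher level, *Tep2*, a thioester protein that binds microbes, had 15.9, 19.97 and 12.2 CPM in *D. mauritiana* and 77.1, 75.5 and 64.6 CPM in *D. simulans*, a log2-fold change of -2.18 (SE 0.18, edgeR, adjusted p = 0.000325). *spz*, which encodes the ligand of the receptor Toll, fell by 1.28 on the log2 scale (SE 0.27), and *PGRP-LC*, the receptor of the Imd pathway, had a log2-fold change of 0.87 (SE 0.19). *IM18* had 0.113, 0.104 and 0.0761 CPM in *D. mauritiana* and 31.4, 3.18 and 4.89 CPM in *D. simulans*, where library A was the highest. *DptA*, the antimicrobial peptide diptericin, had 0.113, 0.228 and 0.0634 CPM in *D. mauritiana* and 5.58, 0.0807 and 3.86 CPM in *D. simulans*, so the species overlapped and its call was lost in 5 of 6 fits without 1 library. Without *D. simulans* A, 15 genes of the list were lower and 6 higher, and without *D. mauritiana* D, 12 were lower and 1 higher, and 2 were higher without *D. simulans* B.

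Serine proteases and serpins counted 11 higher and 10 lower of 45, but 6 higher and 6 lower without *D. mauritiana* D and 7 higher without *D. simulans* C. With all libraries the share called was 46.7%, beside 25.1% of all genes tested. *SP1029*, which entered the list by its symbol and is known as an aminopeptidase rather than a serine protease, had 144, 149 and 146 CPM in *D. mauritiana* and 705, 554 and 719 CPM in *D. simulans*, a log2-fold change of -2.17 (SE 0.11, edgeR, adjusted p = 4.01e-05). *Spn43Aa*, a serpin and thus an inhibitor of serine proteases, had 791, 847 and 806 CPM in *D. mauritiana* and 309, 185 and 270 CPM in *D. simulans*, a log2-fold change of 1.68 (SE 0.18, edgeR, adjusted p = 0.000811). Both were abundant genes with no overlap.

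Chemosensory genes counted 19 higher and 17 lower of 106 tested chemoreceptors and 3 higher and 8 lower of 29 odorant-binding proteins. These are shares of 34.0% and 37.9% called, beside 25.1% of all genes tested. Lower calls among chemoreceptors were 9 without *D. mauritiana* D and 10 without *D. simulans* B or C, and those among odorant-binding proteins were 5 without *D. mauritiana* D or E or *D. simulans* C. The neighbouring ionotropic receptors *Ir7f* and *Ir7g* on the X chromosome were near 0 in *D. simulans*. *Ir7f* had 26.7, 33.6 and 33.1 CPM in *D. mauritiana* and 0.0656, 0.37 and 0.346 CPM in *D. simulans*, a log2-fold change of 6.87 (SE 0.53), and *Ir7g* had 17.3, 26.2 and 18.4 CPM in *D. mauritiana* and 0.123, 0.135 and 0.0866 CPM in *D. simulans*, a log2-fold change of 7.49 (SE 0.28). The single-end libraries of *D. mauritiana* held 16.2, 20.1 and 24.1 CPM of *Ir7f* but 1.19, 2.32 and 5.08 CPM of *Ir7g*.

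In the other direction, *Ir68b* had 0.105, 0.11 and 0.0317 CPM in *D. mauritiana* and 19.2, 20.2 and 17 CPM in *D. simulans*, a log2-fold change of -7.85 (SE 0.40, edgeR, adjusted p = 4.72e-05). *Obp99a* had 8.36, 15 and 14.6 CPM in *D. mauritiana* and 0.656, 0.424 and 0.959 CPM in *D. simulans*, and *Obp56e* had 7.48, 5.97 and 4.11 CPM in *D. mauritiana* and 48.6, 87.6 and 48.2 CPM in *D. simulans*. Their log2-fold changes were 4.21 (SE 0.39) and -3.39 (SE 0.32). *Obp44a*, the most abundant called gene of the family, had 266, 361 and 210 CPM in *D. mauritiana* and 100, 67.7 and 109 CPM in *D. simulans*, a log2-fold change of 1.60 (SE 0.24).

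The piwi pathway silences transposons with small RNAs, mainly in the germline. Of 26 tested genes of the piwi and other small RNA pathways, 7 were higher and 6 lower in *D. mauritiana*, and both directions occurred among the Argonaute genes. The share called was 50.0%, beside 25.1% of all genes tested. *piwi*, an Argonaute protein, had 25.5, 27.6 and 33.5 CPM in *D. mauritiana*, against 1.15, 1.65 and 1.49 CPM in *D. simulans*, a log2-fold change of 4.33 (SE 0.19, edgeR, adjusted p = 2.4e-05). *AGO3*, another Argonaute, had 8.01, 9.49 and 6.72 CPM in *D. mauritiana* and 0.148, 0.148 and 0.241 CPM in *D. simulans*, a log2-fold change of 5.48 (SE 0.30). With the directly re-annotated models, in a fit with no correction for model length, it was -1.89, so the direction of *AGO3* depends on the gene model. The Argonaute *aub* had 5.55, 7.51 and 5.5 CPM in *D. mauritiana* and 12.8, 17.2 and 20.2 CPM in *D. simulans*, a log2-fold change of -1.44 (SE 0.21).

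Among the partners of the Argonautes, *mael* had 16.3, 16.3 and 16.6 CPM in *D. mauritiana* and 2.67, 2.43 and 2.21 CPM in *D. simulans*, a log2-fold change of 2.75 (SE 0.13). *krimp*, a Tudor domain protein, had 14.7, 11.6 and 13.8 CPM in *D. mauritiana* and 76.9, 66.6 and 68.2 CPM in *D. simulans*, a log2-fold change of -2.40 (SE 0.11, edgeR, adjusted p = 2.99e-05). Single-end pools of *D. mauritiana* held 18, 16 and 22.8 CPM of *piwi* and 11.7, 9.66 and 11.5 CPM of *krimp*, on the side of *D. mauritiana* for both. *BigH1*, a linker histone of the germline and early embryo, had 0.193, 0.0967 and 0.0888 CPM in *D. mauritiana* and 5.76, 5.18 and 5.07 CPM in *D. simulans*, a log2-fold change of -5.41 (SE 0.35).

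Genes of the cuticle and its colour differed in single members. Cuticle proteins counted 10 higher and 12 lower of 98, close to the share over all tested genes, with 6 higher without *D. simulans* C. *obst-A*, a chitin-binding protein of the larval cuticle, had 423, 433 and 453 CPM in *D. mauritiana* and 138, 111 and 123 CPM in *D. simulans*, a log2-fold change of 1.82 (SE 0.09, edgeR, adjusted p = 4.01e-05). *Cht2*, a chitinase, had 193, 187 and 177 CPM in *D. mauritiana* and 431, 368 and 396 CPM in *D. simulans*, a log2-fold change of -1.10 (SE 0.08). The pigmentation gene *e* (*ebony*), whose enzyme favours light cuticle, had 0.515, 0.836 and 0.14 CPM in *D. mauritiana* and 11.5, 22.4 and 20.9 CPM in *D. simulans*, a log2-fold change of -5.21 (SE 0.64, edgeR, adjusted p = 0.00163). It was below 1 CPM in the 3 single-end libraries of *D. mauritiana* as well, at 0.34, 0.646 and 0.118 CPM. In the pathway that feeds it, *b* (*black*), which makes beta-alanine, had 14.9, 13.3 and 11.3 CPM in *D. mauritiana* and 8.15, 5.78 and 6.64 CPM in *D. simulans*, a log2-fold change of 0.94 (SE 0.17). In the single-end table, *D. mauritiana* held 5.79, 5.28 and 2.6 CPM of *b*, none above *D. simulans*. *Ddc*, which makes dopamine, had a log2-fold change of 1.41 (SE 0.41), a call that was lost in 5 of 6 fits without 1 library.

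The marker alleles of YVF were not visible as a difference in level. *forked* (*f*) had 15.7, 14.9 and 16 CPM in *D. mauritiana* and 14.0, 16.4 and 18.5 CPM in *D. simulans*, and *yellow* (*y*) and *vermilion* (*v*) were below 0.5 CPM in every library. None of the 3 was called (edgeR, adjusted p = 0.717 for *f*, 0.833 for *y* and 0.313 for *v*), which bears only on transcript level and not on the alleles. Among 26 genes of eye pigment and eye colour, 3 were higher and 3 lower (5 higher without *D. mauritiana* F). This is a share of 23.1%, close to the 25.1% of all genes tested. *se* (*sepia*), a glutathione transferase of the red drosopterin pigments, had 4.75, 4.79 and 5.22 CPM in *D. mauritiana* and 1.99, 1.65 and 1.45 CPM in *D. simulans*. Of 17 genes of sex determination and dosage compensation, 2 were higher and 1 lower, all under a log2-fold change of 0.7 in size, and none was called without *D. mauritiana* D.

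Housekeeping lists had small medians. Of 80 tested cytoplasmic ribosomal protein genes, 13 were lower and 1 higher in *D. mauritiana* with a median of -0.19, and of 70 mitochondrial ones 8 were lower and none higher, also with a median of -0.19. The shares called were 17.5% and 11.4%, below the 25.1% of all genes tested. Calls in both lists depended on the libraries: cytoplasmic genes counted 2 lower without *D. mauritiana* D or E, 7 lower without *D. simulans* C and 19 lower without *D. mauritiana* F. Mitochondrial ones counted 3 lower without *D. mauritiana* D or *D. simulans* C, 5 lower without *D. mauritiana* E or *D. simulans* A, and 15 lower without *D. mauritiana* F. The summed level of cytoplasmic ribosomal proteins was 138000, 134000 and 152000 CPM in *D. mauritiana* and 175000, 149000 and 152000 CPM in *D. simulans*, so the species overlapped. Among abundant single genes, *alphaTub84D*, an alpha-tubulin, had 1450, 1450 and 1420 CPM in *D. mauritiana* and 575, 473 and 433 CPM in *D. simulans*, a log2-fold change of 1.54 (SE 0.11, edgeR, adjusted p = 0.000148). Reads of its near-identical copy *alphaTub84B*, which had 5304, 5283 and 5489 CPM in *D. mauritiana* and 6544, 5685 and 5466 CPM in *D. simulans*, may be split between both, so this value is uncertain. *Rcd-1*, a subunit of the CCR4-NOT complex of mRNA decay, had 134, 143 and 161 CPM in *D. mauritiana* and 519, 449 and 475 CPM in *D. simulans*, a log2-fold change of -1.72 (SE 0.09).

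In the largest differences, the species with the lower level was close to 0. *UQCR-11L*, whose symbol marks it as related to a small subunit of respiratory complex III, had 1784, 1938 and 2422 counts in *D. mauritiana* and 2, 1 and 1 counts in *D. simulans*. The ratio of its pooled normalised counts was 1560, with a 95% exact interval from 607 to 5710 that covers counting error only, and a fragment could give up to 4 counts because its reads were split. *Balat*, a transporter of beta-alanine, had 1609, 1871 and 2336 counts in *D. mauritiana* and 4, 3 and 3 counts in *D. simulans*, a log2-fold change of 9.13 (SE 0.25, edgeR, adjusted p = 2.93e-06). *Veneno*, a Tudor domain protein whose relative acts in the piRNA pathway of the mosquito *Aedes aegypti*, had 25.5, 21.8 and 28.1 CPM in *D. mauritiana* and 0.123, 0.141 and 0.229 CPM in *D. simulans*, a log2-fold change of 7.23 (SE 0.27).

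On the other side, *Nepl3*, of the neprilysin family of peptidases, had 0.161, 0.207 and 0.152 CPM in *D. mauritiana*, against 57.3, 63.2 and 52.1 CPM in *D. simulans*, a log2-fold change of -8.37 (SE 0.16, edgeR, adjusted p = 6.16e-07). *CG5892* had 0.0965, 0.0829 and 0.0127 CPM in *D. mauritiana* and 26.0, 25.7 and 32.5 CPM in *D. simulans*, a log2-fold change of -8.81 (SE 0.49). Library E of *D. mauritiana*, which shares the chitin-binding genes with *D. simulans*, was as low as D and F in both genes. The single-end libraries of *D. mauritiana* all lay nearer to the paired-end libraries of *D. mauritiana* than to *D. simulans*, on the log scale, for 13 of the 15 largest increases (all but *Ir7g* and *Muc11A*) and for 13 of the 15 largest decreases (all but *CG17752* and *SPH93*).

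**Figure D5:**
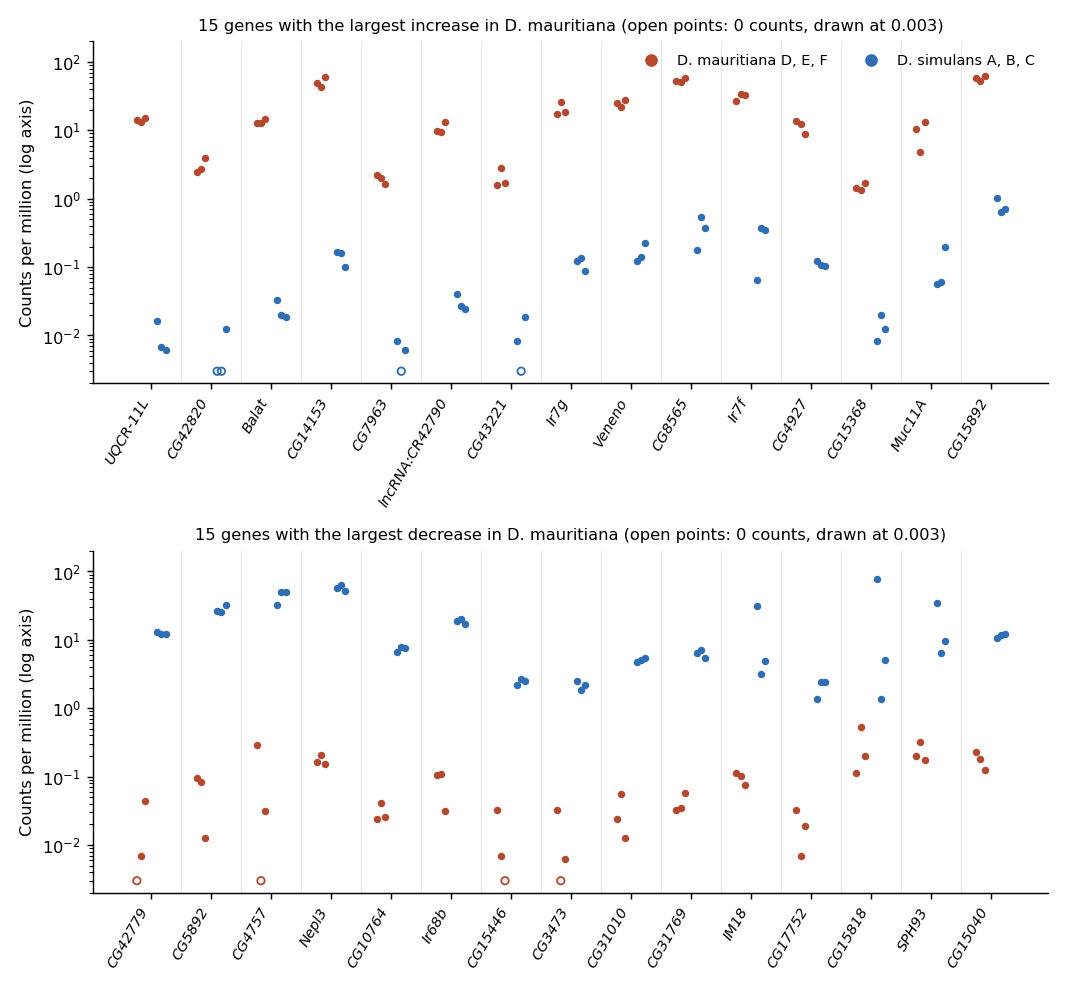
CPM (log axis) of the 15 genes with the largest increase (upper panel) and the 15 with the largest decrease (lower panel) in *D. mauritiana*, in *D. mauritiana* D, E and F (red, left) and *D. simulans* A, B and C (blue, right). The genes were picked for not overlapping, and for most of them the spread within a species is small beside the distance between the species, with *CG15818*, *IM18* and *SPH93* highest in *D. simulans* A.

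Among the 13294 genes kept, counts in all 3 libraries of *D. mauritiana* and 0 in those of *D. simulans* were found for 66 genes, and the reverse for 33 genes. Only 1 of the 66 and 2 of the 33 had at least 100 counts in each library of the other species, so most were at low levels. *CG31077* had 160, 183 and 186 counts in *D. mauritiana* and 0 in all 3 libraries of *D. simulans*, 50.5-fold higher in *D. mauritiana* against a floor of 3 counts per library. *CG44013* had 0 counts in all 3 libraries of *D. mauritiana* and 146, 240 and 128 counts in *D. simulans*. Against the same floor it was 49.8-fold lower in *D. mauritiana*, and *CG43050*, with 0 counts against 102, 131 and 209 counts, was 41.6-fold lower. Among those with 0 counts in *D. mauritiana* were also the odorant receptor *Or30a*, with 21, 24 and 63 counts in *D. simulans*, and the drosomycin-like *Drsl2*, with 11, 24 and 24 counts.

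Runs of at least 4 neighbouring tested genes with a call of at least 2-fold in 1 direction were found 3 times on the published *D. mauritiana* genome, each time lower in *D. mauritiana*. Beside the glucuronosyltransferases these were *CG15022*, *CG32241*, *CG15023* and *CG32249* on arm 3L between 4264006 and 4275012, with log2-fold changes from -3.38 to -1.72, and *CG31104*, *CG13658*, *CG11893* and *CG31098* on arm 3R between 20352965 and 20369184, with log2-fold changes from -4.0 to -1.0. *CG31104* was at a low level, with 5, 3 and 0 counts in *D. mauritiana* and 56, 36 and 14 counts in *D. simulans*, and without it the run on arm 3R would hold fewer than 4 genes.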

How the data were processed

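RNA of the discs was sequenced by the authors with Illumina chemistry, as 100 bp paired-end reads for the 6 libraries compared here. They split the reads to 50 bp, merged them, mapped them untrimmed with Bowtie2 to coding sequences of the same species (UTRs left out) and counted them with SAMtools 0.1.19, so the deposited counts are raw and 1 fragment can give up to 4 counts. Libraries D and E of *D. mauritiana* and C of *D. simulans* held bases of low quality. The single-end libraries of *D. mauritiana* came from another table that was normalised separately, and they enter no test.

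The counts were fitted over the whole table with edgeR 4.0.16 in R 4.3.3 (TMM factors, default filter on low counts, quasi-likelihood test, Benjamini-Hochberg adjustment over all genes tested, threshold 0.05), after the script was tested on simulated data. The SE is the size of the log2-fold change divided by the square root of the F statistic. DESeq2 1.42.0, limma 3.58.1 on log2(RPKM + 1), other factors, filters and annotations, and left-out libraries were alternatives. Where nothing else is said, replicates are separate pools of discs, and p-values measure only their spread.

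The genes named were the 15 largest increases and decreases among calls with no overlap and on average 100 counts or more per library, the 5 most abundant called genes of at least 2-fold in each direction, up to 4 called genes per list at the same minimum, cell type markers, *y*, *v* and *f*, and the 8 genes per direction with 0 counts in 1 species and most counts in the other. Other list members and *Start1*, *Npc1a*, *GstD1* and *alphaTub84B* were chosen after their values were seen. The genes compared and the lists were chosen with earlier results of these data known. Gene symbols came from a table of names, and genes whose identifier was not matched were not analysed by list. Among these were *wg*, *h*, *Dl*, *br*, *InR*, *phm*, *spok* and *nvd*, so the lists of their pathways are incomplete.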

Additional observations from a re-analysis of the deposited data

How the results depend on the processing

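The number of called genes was 2782 with all 6 libraries and lay between 1627 (without *D. mauritiana* D) and 2666 (without *D. mauritiana* F) when 1 library was left out, with 832 to 1332 higher and 795 to 1334 lower in *D. mauritiana*. Without the 3 libraries with bases of low quality, 969 genes were called, 363 higher and 606 lower in *D. mauritiana*, so 37.5% of calls were higher, against 51.6% with all libraries, and 784 were among the 2782. This setting left 1 library of *D. mauritiana*, which was assumed to vary like *D. simulans*. Of the 5 ring gland genes, 4 were then called higher, of the tracheal markers none. With limma on log2(RPKM + 1), 631 genes were called with at least a 2-fold difference, against 1291, since the added 1 shrinks low values. DESeq2 called 3582 genes. With the directly re-annotated models, whose lengths were not equalised or corrected for in the fit, *oc* had a log2-fold change of -0.44 and *AGO3* of -1.89, and the cause was not tested. Without *D. mauritiana* E and *D. simulans* A, which was chosen after seeing the data, 2176 genes were called, 1839 of them among the 2782.

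Of 181 named genes, 45 lost their call without *D. mauritiana* D, 81 without the 3 libraries of low quality, 13 in limma and none in DESeq2. No paired analysis was possible because the sample labels name no pairs of libraries across the 2 species. A gene at 0 counts is known only to lie under 3 counts per library.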
